A study of Mus musculus with 6 samples.

Results

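Krüppel-like factors (KLFs) were compared between Mock and HIF-1α-KD tumor cells through 10 family members, Klf2, Klf3, Klf4, Klf5, Klf6, Klf7, Klf9, Klf10, Klf11 and Klf13, picked by gene name out of the 22880 genes in the deposited table. The cells were of MC-38, a colon adenocarcinoma line of the mouse made to express green fluorescent protein, and had grown as orthotopic tumors in the cecum wall of C57BL/6J mice, whose own cells keep HIF-1α. Both groups were transduced with pLKO.1-puro, an shRNA vector, which targeted HIF-1α in the HIF-1α-KD cells and served as the control in the Mock cells, and neither group had been passaged in vivo. Living fluorescent cells without CD45, found on leukocytes, or CD31, found on endothelium, were sorted, and polyadenylated RNA was sequenced in 3 Mock and 3 HIF-1α-KD libraries. Whether a line was 1 clone, and whether a library came from 1 tumor, was not given in the sources used here, so that p-values measure the spread between these libraries.

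KLFs are transcription factors that bind GC-rich and CACCC sequences of DNA through a conserved set of zinc fingers at the C-terminus. The divergent N-terminus sets the cofactors they work with. Klf3 recruits the corepressor CtBP, Klf9, Klf10, Klf11 and Klf13 recruit the SIN3A corepressor complex, and Klf2, Klf4, Klf5, Klf6 and Klf7 act mainly through acetyltransferases as activators. Several members are known as early response genes, transcribed rapidly after serum, shear stress, TGF-β or glucocorticoids, and in the gut Klf4 and Klf5 are known for opposite roles, in differentiated cells and in dividing crypt cells.

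The DNA in front of 5 members is shown first, with the letters of the HIF binding core marked. Sequences are from RefSeq on GRCm38.p6, in which 8 of the 10 members have a promoter entry, all but Klf5 and Klf10. Each runs 5′ to 3′ on the strand of the gene from 250 bases before the transcription start and stops before the first annotated exon base. Capitals mark the hypoxia response core, ACGTG or GCGTG on either strand, and in Klf2 a match to the MEF2 site. Klf2 is at chr8:72318812-72319032 (+), Klf6 at chr13:5861239-5861481 (+), Klf11 at chr12:24651121-24651273 (+), Klf9 at chr19:23140976-23141225 (+) and Klf4 at chr4:55532476-55532725 (-).
Klf2: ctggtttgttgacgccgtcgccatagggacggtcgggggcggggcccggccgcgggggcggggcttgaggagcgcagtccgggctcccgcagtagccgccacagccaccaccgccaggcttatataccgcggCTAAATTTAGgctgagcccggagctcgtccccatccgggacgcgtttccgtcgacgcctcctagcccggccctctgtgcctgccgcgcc
Klf6: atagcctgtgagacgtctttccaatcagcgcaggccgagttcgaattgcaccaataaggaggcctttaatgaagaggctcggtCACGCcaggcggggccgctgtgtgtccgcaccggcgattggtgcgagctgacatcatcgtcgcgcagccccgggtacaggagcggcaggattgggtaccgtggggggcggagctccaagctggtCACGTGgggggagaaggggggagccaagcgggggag
Klf11: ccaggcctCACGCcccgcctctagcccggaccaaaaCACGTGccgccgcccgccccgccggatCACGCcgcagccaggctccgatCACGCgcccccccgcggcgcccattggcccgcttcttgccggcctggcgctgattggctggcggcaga
Klf9: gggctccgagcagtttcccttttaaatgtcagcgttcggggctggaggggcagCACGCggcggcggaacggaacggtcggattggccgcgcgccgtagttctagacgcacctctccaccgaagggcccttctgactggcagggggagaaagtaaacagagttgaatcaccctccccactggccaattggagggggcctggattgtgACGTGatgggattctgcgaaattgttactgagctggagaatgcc
Klf4: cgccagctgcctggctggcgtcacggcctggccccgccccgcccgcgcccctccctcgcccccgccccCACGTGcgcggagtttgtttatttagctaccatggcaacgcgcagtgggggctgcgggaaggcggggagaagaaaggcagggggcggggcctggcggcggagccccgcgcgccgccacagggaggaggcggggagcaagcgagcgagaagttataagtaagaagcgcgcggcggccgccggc

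Searched on both strands over 250 bases before and 50 bases after the start, the hypoxia response core was found in 7 of the 8 members with an entry, all but Klf2, and in 43.8% of the 32851 promoters of the same length. Klf3, Klf7 and Klf13, whose windows are not shown, each held a core and had log2 fold changes of -0.17, -0.36 and 0.10. Klf2, without a core in its window, had the largest fold change of the family (log2 -1.64). A link between core and change was not tested. The 8 windows held between 58.3% and 77.7% G and C, against a median of 52.7% over all promoters, and among the 11074 promoters with at least 58.3% the share with a core was 67.6%. The E-box CACGTG, which holds the core on both strands, was found in Klf4, Klf6 and Klf11, in 7.15% of all promoters and in 10.6% of those with at least 58.3% G and C. Klf11 held 5 matches to the core, the most among these 8 members, counting both strands of its E-box. The GC box GGGCGG, to which KLF and SP proteins bind, was in 7 members, in 35.7% of all promoters and in 77.1% of those with at least 58.3% G and C. CACCC was in 5 members, in 57.5% of all promoters and in 70.4% of the GC-rich ones. A form of the MEF2 site, CTA and TAG with 4 bases between them, was found only in Klf2 among these members. It was in 3.69% of all promoters and in 2.06% of the GC-rich ones. A loose form of the AP-1 site, TGANTCA with any base at N, was found only in Klf9, as TGAATCA. It was in 7.81% of all promoters and in 3.52% of the GC-rich ones. The cyclic AMP response element TGACGTCA (1.79% of all promoters and 3.14% of the GC-rich ones) and TATAAA (13.6% and 3.52%) were in none of these windows. A match is a string of letters in this window, and binding was not measured.

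Of the 10 KLF transcripts, 5 were lower in HIF-1α-KD than in Mock cells by an unadjusted criterion, and 0 passed the limma test adjusted over all genes. The log2 fold change was below 0 for 9 of the 10 members, where 47.3% of all 12014 genes tested lay below 0. By the nominal criterion, which asks for 1.5-fold or more together with an unadjusted limma p-value under 0.05, 5 members were lower, Klf2, Klf6, Klf9, Klf10 and Klf11, and 0 were higher. Of all genes tested, 3.46% were lower and 4.02% higher by the same criterion. The unadjusted limma p-value alone gave the same 5 members lower (5.69% of all genes) and 0 higher (7.04%). The median log2 fold change was -0.735 over the members and 0.02 over all genes tested. Mock and HIF-1α-KD libraries lay fully apart for Klf2, Klf6, Klf10 and Klf11, each lower in HIF-1α-KD cells, as were 8.75% of all genes tested, and 0 members lay apart in the higher direction (10.4%). At an adjusted p-value under 0.05 across all genes, limma called 0 members (0.383% of all genes lower and 0.00832% higher) and the quasi-likelihood test of edgeR 0 (0.391%), each with the same 5 members at an unadjusted p-value under 0.05. The Wald test of DESeq2 called 3, Klf2, Klf6 and Klf11, where it called 1.56% of all genes lower. All 10 members passed the filter on low counts. The exact permutation test of 3 libraries against 3 allows no p-value below 0.1.

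**Figure D1:**
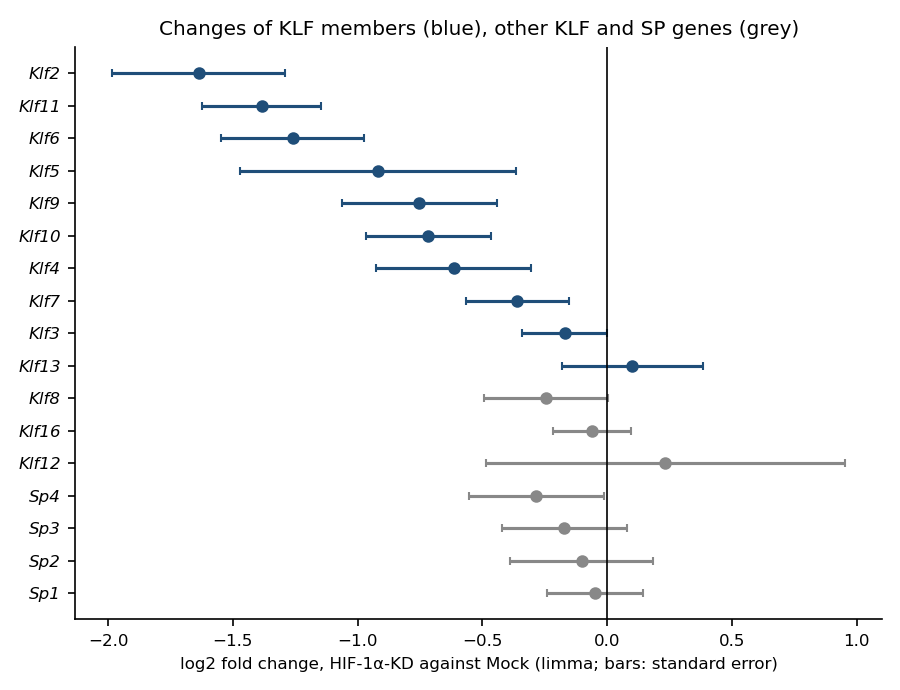
Log2 fold change of HIF-1α-KD against Mock cells (horizontal axis, limma) for the KLF members (blue) and for the other KLF genes and SP factors that passed the filter (grey). Bars are the standard error. The members reach from -1.64 for Klf2 to 0.10 for Klf13, and the 7 grey genes lie between -0.28 and 0.23.

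Klf2 (ENSMUSG00000055148, chromosome 8, 72319033 to 72321656, plus strand, all gene positions on GRCm38) encodes a factor known for keeping endothelial cells and T cells quiescent, and in these cells it had the largest fold change of the family. Its normalized counts, the reads divided by 1 factor per library, reached 797.7, 989.5 and 404.7 in the Mock libraries but 164.1, 287.8 and 222.9 in those of HIF-1α-KD cells. All 3 HIF-1α-KD libraries lay below the lowest Mock library, Mock replicate 3, which itself had less than the other Mock libraries. Mock cells averaged 731 ± 298 and HIF-1α-KD cells 225 ± 61.9 (SD, n = 3 each). The log2 fold change was -1.64 (limma adjusted p = 0.146, DESeq2 adjusted p = 6.7e-05, standard error 0.35), or 3.11-fold lower.

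Klf6 (ENSMUSG00000000078, chromosome 13, 5861482 to 5870394, plus strand), described as a growth suppressor that raises the cell cycle inhibitor p21, had the most reads of the family. It had 11310, 7989 and 7199 normalized counts across the Mock libraries, against 2293, 4800 and 4297 across those of HIF-1α-KD cells. The lowest count was that of HIF-1α-KD replicate 1, and the highest HIF-1α-KD library stayed below the lowest Mock library. On the log2 scale the fold change was -1.26 (limma adjusted p = 0.181, DESeq2 adjusted p = 0.00139, standard error 0.29), or 2.40-fold lower, and without both Mock replicate 1 and HIF-1α-KD replicate 1, a choice made after seeing the data, it was -0.74, with an unadjusted limma p-value of 0.00116.

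The other 3 activator-type members did not pass the nominal criterion. Klf4 (ENSMUSG00000003032, chromosome 4, 55527143 to 55532466, minus strand), a differentiation factor of the gut epithelium and a reprogramming factor, had 1391, 1593 and 1003 normalized counts among Mock libraries and 531.6, 925.7 and 1258 among HIF-1α-KD libraries. HIF-1α-KD replicate 3 exceeded Mock replicate 3, so that the groups overlapped. Its log2 fold change was -0.61 (limma adjusted p = 0.456, unadjusted p = 0.0806, standard error 0.31). The unadjusted limma p-value for Klf4 was 0.0487 without Mock replicate 3 and 0.0145 without HIF-1α-KD replicate 3, and without HIF-1α-KD replicate 1 it was 0.281 with a log2 fold change of -0.27.

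Klf5 (ENSMUSG00000005148, chromosome 14, 99298691 to 99315036, plus strand), the factor of proliferating crypt cells, had the fewest reads, with 29.6, 38.3 and 94.2 normalized counts across the Mock libraries, against 31.4, 13.2 and 35.8 across those of HIF-1α-KD cells. Mock replicate 3 held the highest count, and the other libraries of both groups overlapped. The log2 fold change of -0.92 (limma adjusted p = 0.53, standard error 0.55) became -0.43 without Mock replicate 3. Epithelial markers, described below, also summed highest in that library, with 20.1 FPKM against 2.53 and 2.44 FPKM in Mock replicates 1 and 2. A link to Klf5 was not tested. Klf7 (ENSMUSG00000025959, chromosome 1, 64029447 to 64122282, minus strand), known from neuronal and fat cell development, had 988.5, 826.8 and 1021 normalized counts among Mock libraries and 927.4, 569.6 and 746.2 among HIF-1α-KD libraries. HIF-1α-KD replicate 1 lay among the Mock libraries, and the log2 fold change was -0.36 (limma adjusted p = 0.507, unadjusted p = 0.115, standard error 0.21). The unadjusted limma p-value for Klf7 was 0.0279 without HIF-1α-KD replicate 1, where the log2 fold change was -0.53, and 0.425 without HIF-1α-KD replicate 2, where it was -0.18.

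Among the SIN3A-binding members, 3 of 4 were lower by the nominal criterion. Klf11 (ENSMUSG00000020653, chromosome 12, 24651274 to 24662789, plus strand), a TGF-β-inducible repressor also known as TIEG2, had 235.1, 239.2 and 181.2 normalized counts across the Mock libraries, against 91.7, 83.9 and 72.8 across those of HIF-1α-KD cells. Both groups were narrow and lay far apart, around a mean of 219 ± 32.4 for Mock and 82.8 ± 9.51 for HIF-1α-KD cells (SD, n = 3 each). This gave a log2 fold change of -1.38 (limma adjusted p = 0.0684, DESeq2 adjusted p = 0.000344, standard error 0.24), or 2.61-fold lower. Klf11 had the smallest adjusted p-value of the family in limma, and its log2 fold change ranged from -1.51 to -1.30 when 1 library at a time was dropped.

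Klf10 (ENSMUSG00000037465, chromosome 15, 38291463 to 38300706, minus strand), known as TIEG1 and likewise induced by TGF-β, had 1309, 770.4 and 920.5 normalized counts among Mock libraries and 584.7, 766.2 and 465.5 among HIF-1α-KD libraries. The groups were separated by only 770.4 in Mock replicate 2 against 766.2 in HIF-1α-KD replicate 2. Its log2 fold change was -0.72 (limma adjusted p = 0.319, unadjusted p = 0.0194, standard error 0.25). The unadjusted limma p-value for Klf10 was 0.0689 without Mock replicate 1 and 0.0699 without HIF-1α-KD replicate 3.

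Klf9 (ENSMUSG00000033863, chromosome 19, 23141226 to 23168134, plus strand), which is induced by glucocorticoids and thyroid hormone, had 570.0, 452.7 and 250.0 normalized counts across the Mock libraries, against 288.7, 200.2 and 232.2 across those of HIF-1α-KD cells. The groups overlapped at Mock replicate 3, which lay below HIF-1α-KD replicate 1. For Klf9, the log2 fold change of -0.75 (limma adjusted p = 0.381, unadjusted p = 0.0397, standard error 0.31) had an unadjusted limma p-value above 0.05 without Mock replicate 1 (0.145), without Mock replicate 2 (0.119), without HIF-1α-KD replicate 2 (0.114) and without HIF-1α-KD replicate 3 (0.076). With all 6 libraries it was also above 0.05 under scaling by library size (0.0558), without the trend of variance on level (0.0547) and on FPKM (0.0661).

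Klf13 (ENSMUSG00000052040, chromosome 7, 63886351 to 63938915, minus strand), a factor of lymphocyte and heart development, was the member with a log2 fold change above 0, of 0.10 (limma adjusted p = 0.908, standard error 0.28). It had 405.0, 460.3 and 315.3 normalized counts among Mock libraries and 633.0, 347.7 and 330.4 among HIF-1α-KD libraries. HIF-1α-KD replicate 1 alone lay above the Mock libraries, and without it the log2 fold change of Klf13 was -0.20.

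Klf3 (ENSMUSG00000029178, chromosome 5, 64803388 to 64832901, plus strand), the CtBP-binding repressor known from red blood cell and fat cell development, was the steadiest member in HIF-1α-KD cells. It had 1246, 1020 and 868.5 normalized counts across the Mock libraries, against 930.6, 931.7 and 895.2 across those of HIF-1α-KD cells. The HIF-1α-KD libraries lay inside the range of the Mock libraries, with a log2 fold change of -0.17 (limma adjusted p = 0.715, standard error 0.17). Exons of Klf3 overlap those of 1 annotated gene on the opposite strand, Gm20033, and exons of Klf7 those of Gm26649 and Gm13748. The kit marked strand, and the strand setting of the counting was not given in the sources used here.

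**Figure D2:**
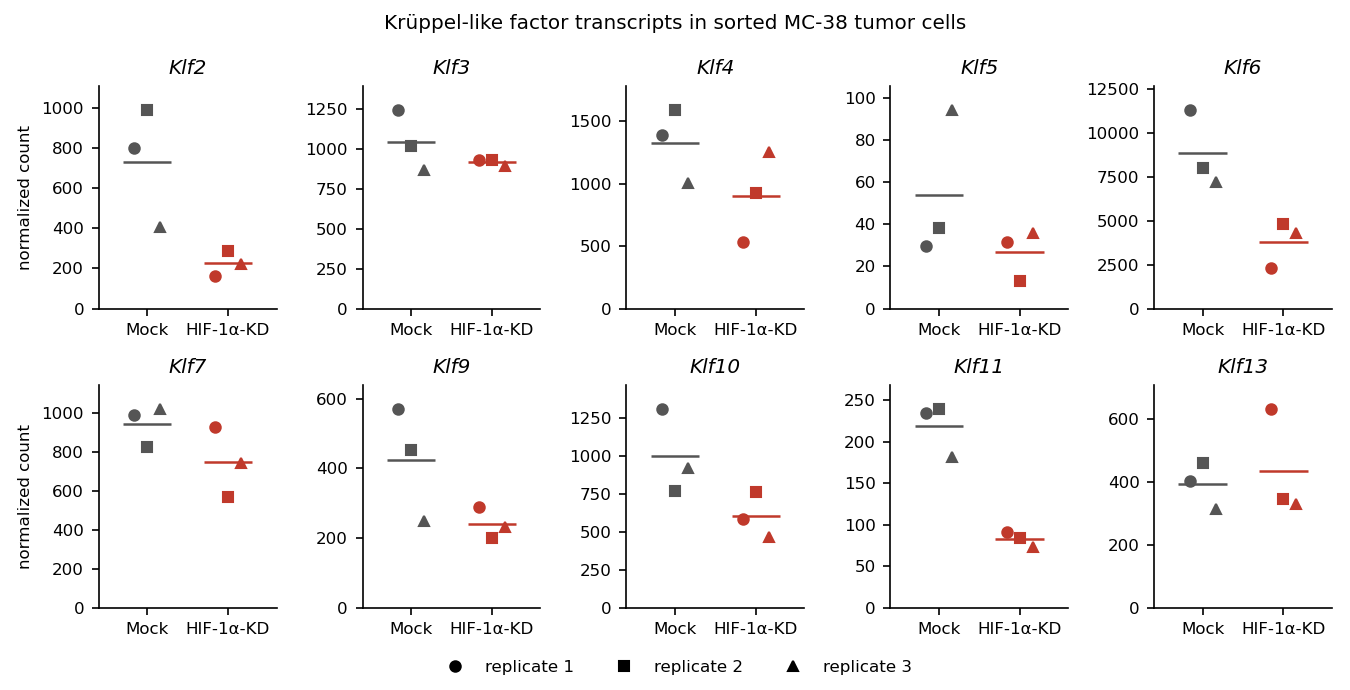
Normalized counts (vertical axes, from 0) of the 10 KLF members in 3 Mock (grey) and 3 HIF-1α-KD libraries (red), with a marker shape for each replicate number and a line at the group mean. The groups are apart for Klf2, Klf6, Klf11 and, by a small margin, Klf10, and they overlap for the other 6 members.

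By cofactor, the 5 activator-type members had a median log2 fold change of -0.92, with 5 below 0 and 2 lower by the nominal criterion (3.46% of all genes). The 4 SIN3A-binding members had a median of -0.735, with 3 below 0 and 3 lower. The classes were not tested against each other.

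Levels were compared between genes on the FPKM scale, which divides by transcript length. In Mock cells, Klf6 was the highest member with 83.4 ± 19.3 FPKM (SD, n = 3), and its lowest library (66.8) exceeded the highest of Klf4 (45.1). Klf4 followed with a level of 36.2 ± 9.24 FPKM, above Klf3 with 22.1 ± 3.87, without overlap. Klf3, Klf2 (15.9 ± 6.91), Klf10 (13.1 ± 3.29) and Klf7 (11.7 ± 0.888) formed a run in which each gene overlapped the next. Klf13 (7.51 ± 1.63), Klf11 (6.16 ± 1.04) and Klf9 (5.20 ± 1.97) came below Klf7 without overlap with it and overlapped one another in turn. Klf5 was lowest with 1.25 ± 0.788 FPKM.

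In HIF-1α-KD cells Klf6 (37.6 ± 13.8 FPKM), Klf4 (25.7 ± 10.8) and Klf3 (20.2 ± 0.467) kept the first ranks, where Klf6 overlapped Klf4 and Klf4 overlapped Klf3, while Klf3 lay above Klf7 without overlap. Klf2 moved from rank 4 to rank 7, with a mean level of 5.07 ± 1.48 FPKM, and overlapped Klf10 above it but not Klf9 below it. Klf11 moved from rank 8 to rank 9, with 2.42 ± 0.231 FPKM, and overlapped Klf9 in both groups. The summed level of the 10 members was 234.1, 212.8 and 160.3 FPKM in Mock but 98.4, 131.9 and 132.9 FPKM in HIF-1α-KD libraries. Klf6 made up between 37.0% and 44.6% of that sum in Mock and between 22.3% and 36.2% in HIF-1α-KD libraries, and Klf3 between 10.6% and 11.2% in Mock and between 15% and 20.2% in HIF-1α-KD libraries. In bulk RNA, fewer cells that express a gene and less RNA per cell cannot be told apart.

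**Figure D3:**
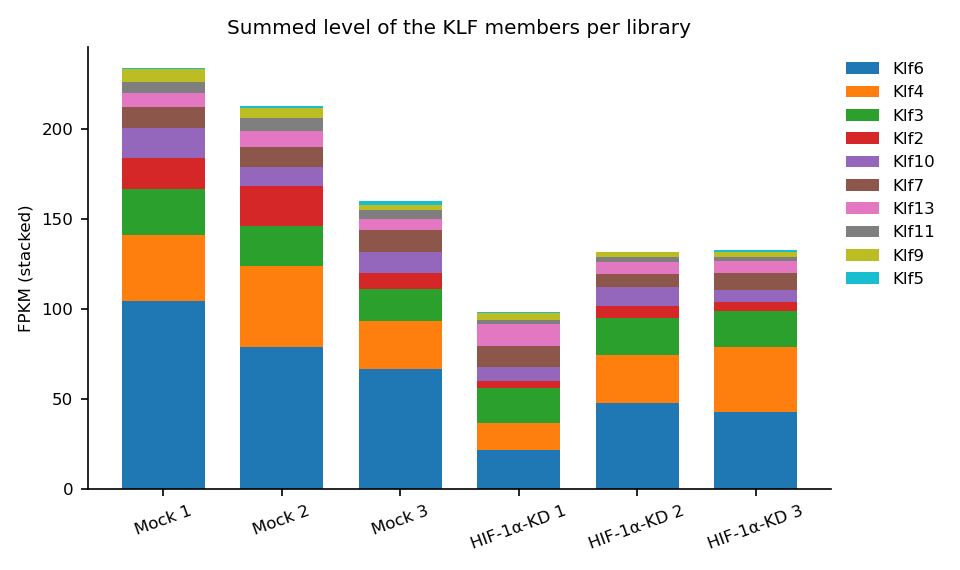
Stacked FPKM of the 10 KLF members in each library (vertical axis from 0). The Mock sums of 160.3 to 234.1 FPKM lie above the HIF-1α-KD sums of 98.4 to 132.9, and the blue part, Klf6, shrinks most.

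Hif1a, the targeted gene, had 6914, 5424 and 4945 normalized counts among Mock libraries and 697.3, 3142 and 1928 among HIF-1α-KD libraries, so that HIF-1α-KD replicate 1 kept 12.1% of the Mock mean, replicate 2 kept 54.5% and replicate 3 kept 33.5%. Klf2 and Klf6 took the same order, lowest in HIF-1α-KD replicate 1 (22.5% of the Mock mean for Klf2 and 26.0% for Klf6), then replicate 3, then replicate 2. Klf11 did not, with 42.0%, 38.4% and 33.3% in replicates 1, 2 and 3. Klf4 was also lowest in replicate 1 (40.0%) but reached 94.7% in replicate 3. Klf9, Klf7 and Klf13 were highest in replicate 1, at 68.1%, 98.1% and 161% of the Mock mean. Klf3 and Klf10 were lowest in replicate 3, and Klf5 in replicate 2. In all, replicate 1 was the lowest HIF-1α-KD library for 3 of the 10 members and the highest for 4. With 3 HIF-1α-KD libraries these orders are descriptions without a test, and the share of all genes with the order of Hif1a was not determined. Among the Mock libraries, replicate 3 was the lowest for 7 of the 10 members and also for Hif1a, and the share of all genes was not determined.

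**Figure D4:**
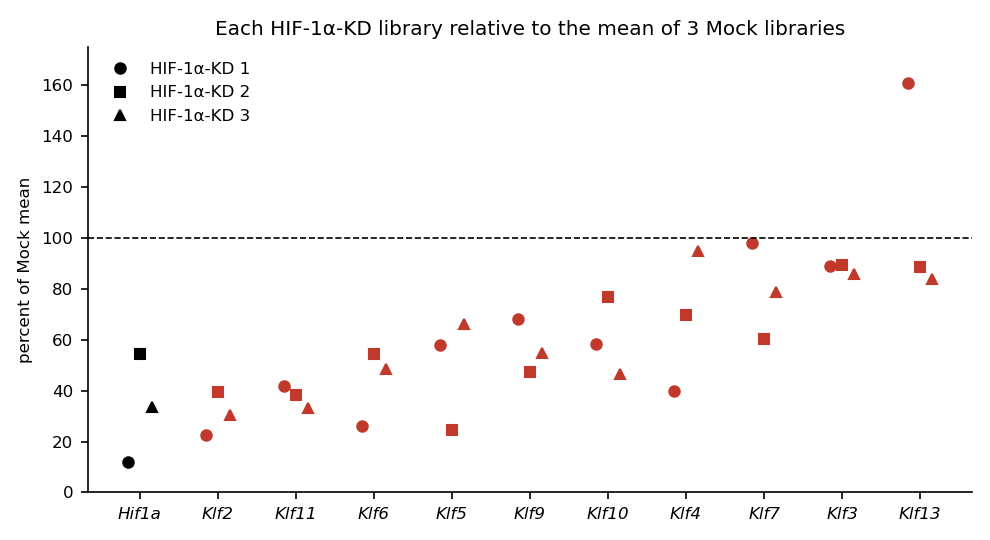
Each HIF-1α-KD library as percent of the mean of the 3 Mock libraries (vertical axis, dashed line at 100) for Hif1a (black) and the KLF members (red), ordered by log2 fold change. For Klf2, Klf6 and Klf11 all points lie at or below 54.3%, and for Klf13 replicate 1 stands alone at 161%.

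Klf8 and Klf12, CtBP-binding repressors, and Klf16, a SIN3A-binding member, passed the filter, and 0 of these 3 were lower or higher by the nominal criterion. Klf16 had 903.6, 1058 and 1208 normalized counts across the Mock libraries, against 1047, 980.8 and 993.4 across those of HIF-1α-KD cells (log2 fold change -0.06, standard error 0.16, limma adjusted p = 0.905). Klf8 had a log2 fold change of -0.24 (limma adjusted p = 0.723) and Klf12, with at most 55.2 normalized counts, one of 0.23 (limma adjusted p = 0.919).

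Klf15, a glucocorticoid-induced metabolic regulator, was under the filter, with 6.16, 7.66 and 6.04 normalized counts among Mock libraries and 11.3, 16.8 and 10.4 among HIF-1α-KD libraries. Its groups did not overlap, in the direction opposite to Klf2 and Klf11. Without the filter, its log2 fold change was 0.84 (limma adjusted p = 0.567, standard error 0.47). Klf1, the red blood cell factor, had at most 4.80 normalized counts, and Klf14 and Klf17 had 0 reads in all 6 libraries.

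SP factors bind the same GC boxes. Sp1, Sp2, Sp3 and Sp4 passed the filter, and 0 of these 4 were called, with log2 fold changes between -0.28 for Sp4 and -0.05 for Sp1 (limma adjusted p between 0.696 and 0.938). Sp1 had the most reads, with 3602, 2919 and 2248 normalized counts across the Mock libraries, against 3079, 2891 and 2401 across those of HIF-1α-KD cells. Sp5, Sp6, Sp7, Sp8 and Sp9 were under the filter.

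Of the 12 corepressor genes that KLFs work with, 1 was lower (3.46% of all genes) and 1 higher (4.02%) by the nominal criterion. Sap30, a subunit of the SIN3A complex, was lower, with 1525, 1012 and 1578 normalized counts among Mock libraries and 469.7, 519.2 and 547.5 among HIF-1α-KD libraries (log2 fold change -1.39, standard error 0.20, limma adjusted p = 0.0298). Adjusted calls by limma, here and for the genes below, depended on single libraries, since the genes called lower numbered 46 of all genes with 6 libraries and 0 without Mock replicate 3 or without HIF-1α-KD replicate 2. Ncor1, a corepressor of nuclear receptors, had a log2 fold change of 0.60 (limma adjusted p = 0.358). The scaffold genes Sin3a and Sin3b and the CtBP genes Ctbp1 and Ctbp2 were not called. Among the 7 coactivators, 0 were called, and the largest log2 fold changes were those of Smarca4 (0.63, limma adjusted p = 0.476) and Ep300 (0.52, limma adjusted p = 0.397). Among the 8 genes of ubiquitin ligases that turn KLF proteins over, 0 were called, and Vhl, with a log2 fold change of -0.37 (limma adjusted p = 0.443), had the smallest p-value.

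The ERK5 and MEF2 genes that drive Klf2 and Klf4 in endothelial cells gave 0 calls among 6 tested. Among the TGF-β genes listed for Klf10 and Klf11, Smad7, an inhibitor of the pathway, was lower by the nominal criterion, with a log2 fold change of -0.77 (limma adjusted p = 0.386). Tgfb3, a ligand, had a log2 fold change of 0.58 (limma adjusted p = 0.219) and Tgfbr1, Tgfbr2, Smad2, Smad3 and Smad4 were not called. Of the 7 genes tested on the steroid hormone list for Klf9, Per1, a clock gene, fell with a log2 fold change of -1.73 (limma adjusted p = 0.0446), and Sgk1, a kinase, had one of -0.89 (limma adjusted p = 0.203). Nr3c1, the glucocorticoid receptor itself, had a log2 fold change of 0.08 (limma adjusted p = 0.923).

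Of 23 genes described as KLF targets, 19 were tested, 6 were lower (3.46% of all genes) and 4 higher (4.02%) by the nominal criterion, with a median log2 fold change of -0.31. Cdkn1a, which encodes p21, fell from normalized counts of 1735, 1238 and 2119 in Mock to 604.0, 484.4 and 544.1 in HIF-1α-KD libraries (log2 fold change -1.61, standard error 0.21, limma adjusted p = 0.0245). Cdkn1b, which encodes the related inhibitor p27, had a log2 fold change of -1.08 (limma adjusted p = 0.0934). In the other direction, Pdgfa, which the paper calls a vessel-stabilizing factor, had a log2 fold change of 1.00 (limma adjusted p = 0.228). S1pr1, a receptor gene that Klf2 activates in lymphocytes, had one of 0.84 (limma adjusted p = 0.258).

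Several KLF genes belong to the early response genes that tissue digestion is known to induce. Of 27 other such genes tested, 25 had a log2 fold change below 0 (47.3% of all genes tested). By the nominal criterion 16 were lower (3.46%), and the median was -1.07. At an adjusted p-value under 0.05, limma called 1 of them lower (0.383% of all genes) and DESeq2 11 (1.56%). Ier3, a survival factor, fell with a log2 fold change of -2.07 (limma adjusted p = 0.0242), and Rhob, a small GTPase, had one of -1.50 (limma adjusted p = 0.0934). The summed level of the list was between 2980 and 3827 FPKM in Mock and between 2381 and 3027 FPKM in HIF-1α-KD libraries, which overlapped. Hspa8, a constitutive chaperone and the most abundant gene of the list, made up between 1620 and 2122 FPKM of it in each library. Without Hspa8, left out after seeing the data, the list summed to between 1360 and 2047 FPKM in Mock and between 415.4 and 904.5 FPKM in HIF-1α-KD libraries, which did not overlap. The part of tissue digestion in the KLF changes was not tested. Of 25 core hypoxia genes, limma called 14 lower at an adjusted p-value under 0.05 (0.383% of all genes) and DESeq2 18 (1.56%). Of the same 25, 23 were below 0 (47.3% of all genes) and 21 were lower by the nominal criterion (3.46%), with a median of -1.33. Klf2 and Klf11 lay below that median in log2 fold change, and the other 8 members above it. These lists were chosen with earlier results of the same libraries known and are no independent evidence of a direction.

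**Figure D5:**
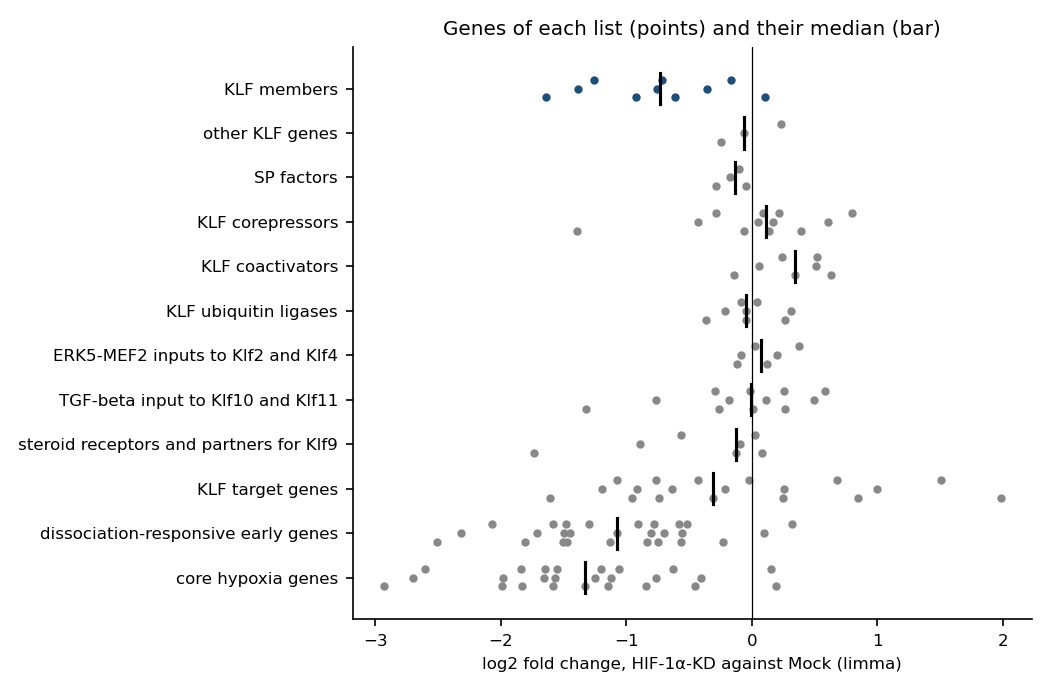
Log2 fold change of HIF-1α-KD against Mock cells (horizontal axis, limma) for the tested genes of each list (points), with the median as a bar. The KLF members (blue, median -0.735) lie between the early response genes (-1.07) and core hypoxia genes (-1.33) on the left and the other KLF genes (-0.06) and SP factors (-0.14) near 0.

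Reads on genes were between 19845824 and 30809313 per library. On the first principal component of all genes, the greatest distance was that between Mock replicate 1 (-39.1) and HIF-1α-KD replicate 1 (56.2). Epithelial markers were near 0, with 4 of 12 past the filter and a summed level between 2.44 and 20.1 FPKM, of which Mock replicate 3 held the most. Endothelial markers, which matter for Klf2 and Klf4, summed to between 12.7 and 24.3 FPKM in Mock and between 21.7 and 29.0 FPKM in HIF-1α-KD libraries, with 5 of 12 past the filter, 1 lower (Cdh5, 3.46% of all genes) and 1 higher (Flt1, 4.02% of all genes) by the nominal criterion, and Pecam1, which encodes the sorted-out CD31, at most at 1.28 FPKM. Leukocyte markers summed to between 214.5 and 323.1 FPKM in Mock and to 159.0, 522.2 and 805.1 FPKM in HIF-1α-KD libraries, with 17 of 20 past the filter, 1 higher (Cd74) against the same 4.02% of all genes, and Ptprc, which encodes CD45, at most at 3.23 FPKM. Fibroblast and pericyte markers, led by Col3a1, summed to between 1949 and 3676 FPKM in Mock and between 4615 and 5244 FPKM in HIF-1α-KD libraries, with 11 of 12 past the filter and 4 higher (Col3a1, Cspg4, Rgs5 and Pdgfrb), again beside 4.02% of all genes. None of these 20, 12 and 12 leukocyte, endothelial and fibroblast or pericyte genes was at 0 in all libraries, and their part in the KLF changes was not tested.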

How the data were processed

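RNA of sorted MC-38 tumor cells was measured in 6 libraries, grouped by the titles in the labels. The paper's methods state that the authors aligned trimmed single-end reads by STAR, counted per gene by featureCounts and ran DESeq2. GRCh38 is the build named there and GRCm38 the one in the labels, and the identifiers in the table are those of mouse genes. The tools listed in the labels are STAR and edgeR, where the paper names DESeq2. Of the deposited values, the normalized counts are a signal: per library, the authors divided all counts by the same factor. The authors also deposited FPKM values, scaled by gene width and library size. The deposited log2 ratio, p-value and false discovery rate hold the authors' own comparison and were not used. The deposited GC content is a fraction given by the authors with the annotation.

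Reads were recovered by dividing the normalized counts by the value of 1 read, and 100% of values up to 300 reads were whole within 0.02 reads or the rounding of 4 digits. Genes were filtered with filterByExpr of edgeR 4.0.16 (minimum count of 10), which left 12014. The main test was the moderated test of limma 3.58.1, two-sided and with a trend of variance on mean level, applied to log2(normalized count + 1), and p-values were corrected over all genes tested (Benjamini-Hochberg). Fold changes are on that scale, which understates low genes. Other settings tried were edgeR and DESeq2 1.42.0 on recovered reads, scaling, filter, pseudocount, no trend, a replicate block, FPKM and leaving out each library. Genes were named by a rule: every member, every other KLF and SP gene, and up to 4 genes of each further list by p-value, with a few more, named after their values were seen, to say that they were not called or to give markers. A result of the TGF-β list is not reported here. Members and lists were chosen with earlier results of these data known. Positions are from GENCODE vM21 (GRCm38). R 4.3.3, Python 3.11.15 and matplotlib 3.10.9 were used.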

Additional observations from a re-analysis of the deposited data

How the results depend on the processing

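The count of KLF members lower by the nominal criterion, 5 of 10, was 4 or 5 under each of the 11 alternatives that kept all 6 libraries, and ranged from 3 to 6 when 1 library at a time was dropped. It was 3 without Mock replicate 1, and 3 without both Mock replicate 1 and HIF-1α-KD replicate 1, an alternative chosen after seeing the data. At an adjusted p-value under 0.05 the count was 0 except with the DESeq2 Wald test, which gave 3 and, over all genes, 187 lower and 96 higher where limma gave 46 and 1. The limma count of all genes lower was 1 without the trend of variance on level and ranged from 0 (without Mock replicate 3 or HIF-1α-KD replicate 2) to 32 when 1 library was dropped, being 2 without Mock replicate 1, 10 without Mock replicate 2 and 9 without HIF-1α-KD replicate 3. By the nominal criterion, 416 of all genes were lower and 483 higher in the main fit. These counts were 317 and 242 without Mock replicate 1, and 324 and 614 under scaling by library size. Klf2, Klf6 and Klf11 kept their direction and an unadjusted p-value under 0.05 under all 18 alternatives. Klf13 ranged from -0.20 to 0.27 when 1 library was dropped, turning to -0.05 without Mock replicate 3, to -0.20 without HIF-1α-KD replicate 1 and to -0.17 without both replicates numbered 1. The cause was not tested. Of 180 comparisons of a member with its main value, 162 kept direction and side of the threshold, 11 lost an unadjusted p-value under 0.05, 4 gained it and 3 turned. Replicate numbers were not taken as pairs, since same-numbered libraries did not deviate together (correlations of -0.14, -0.12 and 0.02), and a replicate block left 5 members lower by the nominal criterion, and 0 of all genes at an adjusted p-value under 0.05 in limma (403 lower and 458 higher by the nominal criterion). With at most 94.2 normalized counts per library, Klf5 was measured with the fewest reads of the members.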
